A study of Mus musculus with 14 samples.

Results

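The 10 genes described here encode the mouse MHC class I presentation pathway: the heavy chains H2-K1, H2-D1, H2-M3 and H2-M2, their light chain B2m, the peptide transporter subunits Tap1 and Tap2, the loading factor Tapbp (tapasin) and the immunoproteasome subunits Psmb8 and Psmb9. They were taken by gene symbol from a table of 14084 genes. All 10 were in the table and all 10 passed the filter on low counts that left 13861 genes. RNA came from cortical microglia, the resident macrophages of the brain, isolated by fluorescence-activated sorting from C57BL/6 mice labelled as 8 to 10 weeks old. Stroke mice had the distal middle cerebral artery tied for good and both common carotid arteries closed for 7 min, and their microglia were taken at day 1, 3, 7, 21, 60 or 90. Sham mice received a lesion of the skull surface without either occlusion. Each of the 7 groups had 2 libraries, numbered replicate 1 and replicate 2, which makes 14. No transgene or drug is named for any group, and the labels do not say whether a library held 1 animal or a pool, or when sham animals were sampled.

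Class I molecules display peptides from inside the cell to CD8 T cells and to receptors of natural killer cells. The proteasome cuts proteins into peptides, the TAP transporter carries them into the endoplasmic reticulum, and tapasin helps load them onto a heavy chain bound to beta-2 microglobulin. H2-K1 and H2-D1 are classical heavy chains, found on most cells and raised by interferons. H2-M3 is a non-classical chain known for presenting N-formylated peptides, and H2-M2 is another class I heavy chain gene of the H2-M region. Resting microglia are known for low class I levels that rise under inflammation.

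Total counts were between 15254983 and 28758420 in the replicate 1 libraries and between 100625099 and 191692779 in the replicate 2 libraries, so the replicate number also separates depth. Levels of genes are given per library in CPM, counts scaled to a common library total with TMM factors, replicate 1 first. Sums over cell type marker lists, here and below, are CPM without TMM factors. These factors ran from 0.674 (day 60 replicate 2) to 1.35 (day 21 replicate 1), so sums and gene levels are on different scales. Microglial markers were all detected in sham but summed to only 1596 to 2691 CPM there, against 2650 to 26626 CPM after stroke (12 genes). The defining microglial gene Tmem119 had 16.9 and 2.48 CPM in the sham libraries. Neutrophil markers (13 of 14 in the table) summed to 22307 to 33144 CPM in sham and to 378 to 7979 CPM after stroke, and erythroid markers (3 of 9 in the table) to 230 to 248 and 0 to 5.22 CPM. The neutrophil genes did not all move alike. At day 90 Ngp, Ltf, Mpo and Elane were above both sham libraries, with Ltf at 933 and 1277 CPM (203 and 312 in sham) and Mpo at 334 and 346 CPM (3.09 and 0.380 in sham). S100a8, S100a9, Retnlg, Mmp8, Mmp9, Csf3r, Cxcr2 and Lcn2 were below both at day 90, and Camp overlapped sham. Monocyte markers (13 genes) summed to 7124 and 13593 CPM in sham and to 1087 to 9492 CPM after stroke. Endothelial markers (9 genes) were higher in replicate 2 in all 7 groups, most in sham (49.2 and 1498 CPM). Neuronal markers (6 of 8 in the table) summed to 1194 and 995 CPM in replicate 2 of days 60 and 90 and to at most 24.1 CPM in every other library. The part of these lists in the differences was not tested. In such bulk samples, fewer cells of a type and less RNA per cell cannot be told apart.

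Heavy chain genes are near-identical over long stretches, which bears on how reads are assigned to them. The coding stretch below opens the longest run that H2-D1 shares base for base with H2-Q1 in the GENCODE M21 transcripts, a run of 184 bases, and holds coding bases 667 to 726 of H2-D1. It is shown because the same 60 bases stand in H2-K1, H2-T23 and H2-T24 as well, while H2-M3 differs at 3 bases and H2-M2 at 6. Capitals mark bases that differ from H2-D1.
H2-D1: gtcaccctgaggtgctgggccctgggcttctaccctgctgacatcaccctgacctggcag
H2-M3: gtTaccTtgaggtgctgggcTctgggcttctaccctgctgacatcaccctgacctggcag
H2-M2: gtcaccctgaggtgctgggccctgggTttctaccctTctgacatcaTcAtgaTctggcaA

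Over the aligned coding sequence H2-D1 was 91.4% identical to H2-K1 and 88.2% to H2-Q1, but 74.8% to H2-M2 and 73.9% to H2-M3. The share of a gene's 50-base words that also stood in a transcript of another gene was 13.9% for H2-D1 and 6.87% for H2-K1. It was 1.61% for H2-M2 and 0.576% for H2-M3, so these 2 chains have little sequence in common with others at that length. Tapbp had 3.50%, Tap1 0.834% and Tap2 0.708%, and B2m, Psmb8 and Psmb9 had none. With 30-base words H2-D1 had 29.0% and H2-K1 21.6%, and with 100-base words 4.09% and 0%. The read length is not given in the sources used here. Values of H2-D1 and H2-K1 below are therefore uncertain as to which gene their reads came from, and the 2 replicates are given apart. For H2-K1 the extent depends on the read length.

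The upstream sequences of the heavy chain genes and B2m are shown because these genes differed in their time courses. RefSeq promoter entries (build GRCm38.p6, which is not the mm9 build of the counts) matched 9 of the 10 symbols, H2-K1 through 1 of its listed starts. Tap2 was not matched. The first 250 bases before each start were searched on both strands for the NF-kB consensus, GAANNGAAA (a shortened interferon element), the interferon-stimulated response element by its consensus, TTCNNNGAA (the gamma-activated site), TGACG (the core of the X2 box) and CCAAT. These motifs were chosen after the sequences were seen. Capitals mark every match, some of which overlap, and each window runs from 10 bases before the first NF-kB or interferon match to at most 10 bases after the last TGACG or CCAAT match.
H2-K1: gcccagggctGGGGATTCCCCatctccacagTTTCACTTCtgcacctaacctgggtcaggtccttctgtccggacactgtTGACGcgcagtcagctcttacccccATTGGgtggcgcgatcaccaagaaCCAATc
H2-D1: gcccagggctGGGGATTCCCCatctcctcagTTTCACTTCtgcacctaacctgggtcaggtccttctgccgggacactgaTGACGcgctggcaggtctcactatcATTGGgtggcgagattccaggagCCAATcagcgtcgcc
H2-M3: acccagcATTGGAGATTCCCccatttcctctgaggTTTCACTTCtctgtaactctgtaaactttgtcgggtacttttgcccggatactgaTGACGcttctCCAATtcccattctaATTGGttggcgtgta
H2-M2: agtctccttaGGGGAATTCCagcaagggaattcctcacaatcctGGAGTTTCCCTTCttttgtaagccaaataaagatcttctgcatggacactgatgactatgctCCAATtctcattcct
B2m: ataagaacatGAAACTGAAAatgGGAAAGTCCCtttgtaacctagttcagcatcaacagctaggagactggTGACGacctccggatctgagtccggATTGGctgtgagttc

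The windows lie at chr17:34000334-34000468 on the minus strand for H2-K1, chr17:35262913-35263055 on the plus strand for H2-D1, chr17:37270098-37270227 on the plus strand for H2-M3, chr17:37483624-37483744 on the minus strand for H2-M2 and chr2:122147538-122147648 on the plus strand for B2m. Of the 9 promoters, 5 held the NF-kB consensus, namely those of the 4 heavy chains and B2m, against 7.25% of all 32851 promoter windows. GAANNGAAA was in the same 4 heavy chain promoters and in 6.31% of all windows. The interferon-stimulated response element was found in B2m only among the 9 and in 2.98% of all windows. H2-K1, H2-D1 and H2-M3 had TGACG downstream of GAANNGAAA, and B2m had it downstream of its interferon-stimulated response element. H2-M2 had its only TGACG 236 bases before the start, outside the window shown. TGACG stood in 7 of the 9 promoters and 17.8% of all windows, CCAAT in 8 and 33.8%, and TTCNNNGAA in 2 (H2-M3 and Psmb8) and 7.02%. A match describes these letters and does not show a site in use. The motifs were chosen after the sequences were seen and the 4 heavy chains are related genes, so these shares test no excess.

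Psmb9, Tap1, Psmb8 and Tap2 neighbour one another in that order in RefSeq. Psmb9 and Tap1 start back to back, and the 225 bases between their starts (chr17:34187331-34187555, plus strand) are shown because both genes would read from this stretch, Psmb9 to the left and Tap1 to the right.
Psmb9 and Tap1: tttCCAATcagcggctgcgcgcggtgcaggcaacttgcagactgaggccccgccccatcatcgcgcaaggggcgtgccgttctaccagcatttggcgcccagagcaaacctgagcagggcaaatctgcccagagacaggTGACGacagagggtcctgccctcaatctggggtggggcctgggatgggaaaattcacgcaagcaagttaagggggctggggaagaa

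H2-M2 had no count in either sham library and reached its highest level at day 90. Its counts in replicates 1 and 2 were 7 and 0 at day 1, 3 and 58 at day 3, 8 and 143 at day 7, 221 and 298 at day 21, 1556 and 5053 at day 60 and 3803 and 14850 at day 90. In CPM these were 0.397 and 0 at day 1, 0.197 and 0.337 at day 3, 0.388 and 1.18 at day 7, 9.64 and 2.42 at day 21, 59.5 and 40.7 at day 60 and 104.7 and 74.4 at day 90. Both libraries of each time lay above both libraries of the time before from day 7 onward, while day 3 overlapped day 1. The 2 sham libraries together were given a floor of 3 counts. Against it the pooled level was at least 10.9-fold higher at day 3, 35.8-fold at day 7, 119-fold at day 21, 1477-fold at day 60 and 2651-fold at day 90. These bounds cover counting error in sham only, not in the stroke libraries, and rest on sham replicate 2, the deeper library. Without it they were 1.79-, 5.87-, 19.5-, 242- and 435-fold. The day 21 bound was 323-fold without day 21 replicate 2. Without day 3 replicate 2 the day 3 level was 0.197 CPM, from 3 counts, against a floor of 0.0298 CPM, and no bound is given. Without day 7 replicate 2 the day 7 level was 0.388 CPM against a floor of 0.0298 CPM. No bound is given for day 1, where 1 library held all 7 counts.

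**Figure D1:**
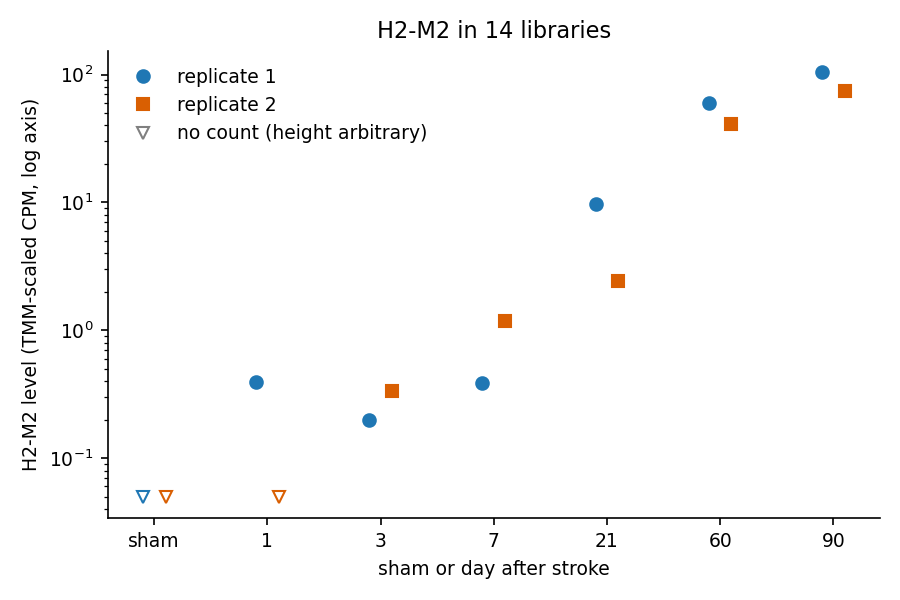
H2-M2 level per library (TMM-scaled CPM, log axis) in sham and at each day after stroke, circles for replicate 1 and squares for replicate 2, with open triangles for libraries without a count. The day 60 and day 90 libraries sit between 40.7 and 104.7 CPM, above the 9.64 CPM of the highest day 21 library.

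H2-M2 passed edgeR's quasi-likelihood test against sham at day 21 (adjusted p = 0.0249), day 60 (adjusted p = 0.00916) and day 90 (adjusted p = 0.00751), and not at day 7 (adjusted p = 0.0510), day 3 (0.128) or day 1 (0.300). Day 7 passed with upper-quartile scaling in edgeR (adjusted p = 0.0474), and DESeq2 called days 3 and 7 (adjusted p = 0.0137 and 0.000797). It also differed among the 7 groups jointly (edgeR adjusted p = 0.00869). These 6 comparisons share the 2 sham libraries. The call at day 21, 60 and 90 was kept in 12 of 14 fits that left out 1 library and was lost without either sham library, with adjusted p between 0.0517 and 0.180. Days 60 and 90 against days 1 and 3, which need no sham library, differed by 8.49 ± 1.18 on the log2 scale (edgeR adjusted p = 0.00609), with all 4 late libraries above all 4 early ones. That call held in 13 of the 14 fits and was lost without day 3 replicate 1 (adjusted p = 0.0661). With both sham libraries left out of the fit the difference was 8.50 ± 1.18 (adjusted p = 0.00764).

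H2-M3 rose at day 60. Its level was 33.0 and 50.8 CPM in sham, 78.1 and 34.1 CPM at day 1, 52.2 and 43.4 CPM at day 3, 56.4 and 68.0 CPM at day 7, 68.4 and 95.5 CPM at day 21, 136 and 168 CPM at day 60 and 98.2 and 103 CPM at day 90. Day 1 and day 3 overlapped sham, and both libraries lay above both sham libraries from day 7 on. The day 60 difference from sham was 1.86 ± 0.46 on the log2 scale (edgeR adjusted p = 0.0332), or 2.05 in replicate 1 and 1.73 in replicate 2 taken apart. It kept its call in 6 of the 14 fits that left out 1 library and lost it without any 1 library of sham, day 7, day 60 or day 90 (adjusted p between 0.0504 and 0.222). Day 90 was higher by 1.26 ± 0.46 without passing (adjusted p = 0.107). Days 60 and 90 against days 1 and 3 gave 1.26 ± 0.32 (edgeR adjusted p = 0.0642), with adjusted p of 0.00693 in DESeq2 and 0.0256 in limma-voom. H2-M2 and H2-M3 had the highest likeness of the pairs among the 10 genes by the lower of the 2 replicates' Pearson's r over the 7 groups. It was 0.89 in either replicate, and the points of a replicate number share a range of depth.

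No other gene of the 10 was called in any comparison by edgeR. Against sham the number called was 0 at days 1, 3 and 7, 1 at day 21, 2 at day 60 and 1 at day 90. Over all genes tested 4.55, 8.28, 12.6, 6.44, 7.85 and 7.86% were called at these times. Higher were 3.18, 5.20 and 7.00% of all genes at days 1, 3 and 7, 693 of 13861 at day 21 and 4.96 and 5.12% at days 60 and 90, and lower were 1.37, 3.07, 5.63, 1.44, 2.89 and 2.73% at the 6 times. The 4 calls among the 10 genes were all higher. At an unadjusted p under 0.05 edgeR gave 1 gene at day 1, 4 at day 3 and 2 at day 7, and 21.8, 26.2 and 29.0% of all genes. DESeq2 called 1 gene at day 1 (Tap1), 3 at day 3 (H2-M2, Tap1 and Tap2) and 2 at day 7 (H2-M2 and Psmb9), where it called 14.7, 20.4 and 23.2% of the genes to which it gave an adjusted p. Limma-voom called 0 of the 10 at each of these 3 times and 4.34, 10.0 and 13.8% of all genes. Late against early days called 1 of 10 (higher), where 2.62% of all genes were called, 1.77% higher and 0.844% lower. All 10 genes had a log2 difference above 0 there, with a median of 0.71 against -0.02 over all genes, and 3 had an unadjusted p under 0.05, where 16.3% of all genes had. H2-M2 and H2-M3 were called there by DESeq2 and by limma-voom, which called 8.35 and 5.45% of all genes. The joint test called 1 of 10, where 7.21% of all genes were called. DESeq2 called 3 jointly (H2-M2, H2-M3 and Psmb9) and 25.1% of all genes. The median log2 difference of the 10 genes from sham was -0.42, -0.56, -0.55, -0.18, 0.58 and -0.40 at days 1, 3, 7, 21, 60 and 90, the same to 2 decimals with H2-M2 at its bound. Over all genes it was 0.04, 0.15, 0.06, 0.06, 0.14 and 0.11. Between neighbouring times none of the 10 was called in the 5 comparisons by edgeR, DESeq2 or limma-voom, and edgeR gave 0, 0, 1, 1 and 3 at an unadjusted p under 0.05, against 2.51, 4.14, 9.67 and 3.19% of all genes in the comparisons other than day 60 against day 21 and 1802 of 13861 in that one. Of all genes edgeR called 0, 0.00721, 0, 0.0216 and 0% there, DESeq2 0.0361, 0.968, 2.90, 2.72 and 0.196% and limma-voom 0, 0.0577, 0.0289, 0.0938 and 0%.

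**Figure D2:**
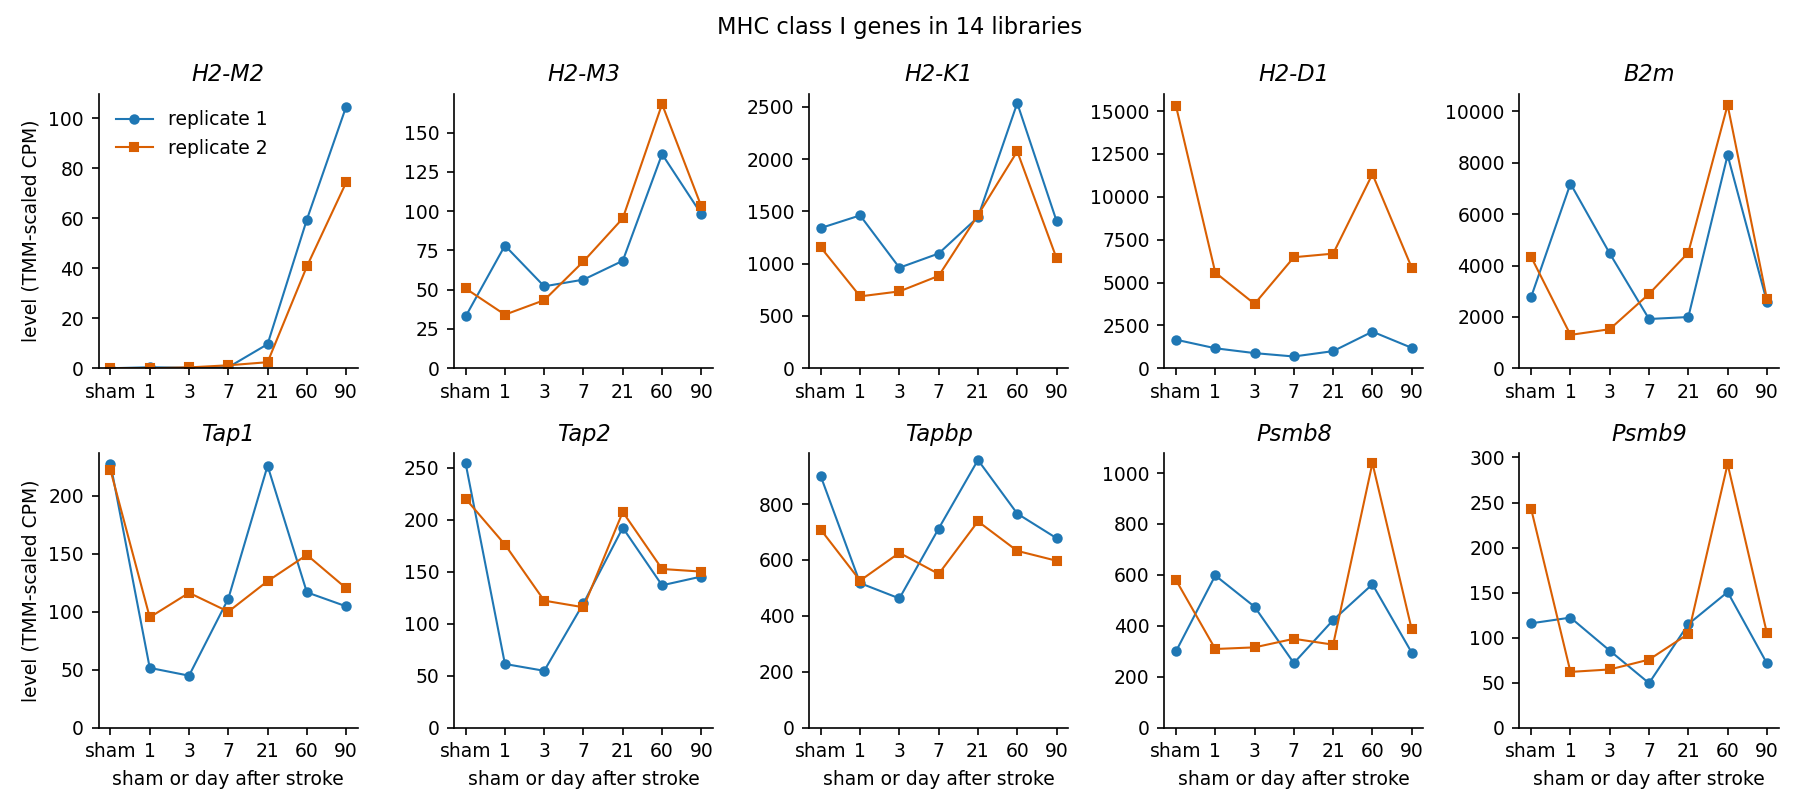
Levels of the 10 genes (TMM-scaled CPM, linear axes from 0, each gene on its own scale) in sham and at each day after stroke, with replicate 1 as circles and replicate 2 as squares. H2-M2 is at 0 CPM in sham and at 104.7 and 74.4 CPM at day 90, H2-M3, H2-K1 and B2m have their highest mean at day 60, and the replicate 2 libraries of H2-D1 lie above all replicate 1 libraries.

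The classical heavy chain H2-K1 was lowest at day 3 and highest at day 60. It had 1341 and 1156 CPM in sham, 1462 and 687 CPM at day 1, 961 and 735 CPM at day 3 and 1097 and 883 CPM at day 7. It then had 1445 and 1465 CPM at day 21, 2535 and 2074 CPM at day 60 and 1409 and 1052 CPM at day 90. Both libraries were below sham at days 3 and 7, above it at days 21 and 60, and overlapped it at days 1 and 90. The log2 difference from sham at day 60 was 0.88 ± 0.48 (edgeR adjusted p = 0.252) and at day 3 -0.56 ± 0.47 (adjusted p = 0.489), so neither passed. In the order of means, only sham to day 21 and day 21 to day 60 were steps between groups that did not overlap.

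H2-D1 differed more between replicate numbers than between groups. Replicate 1 had 1665 CPM in sham and 1166, 883, 686, 998, 2134 and 1190.3 CPM at days 1, 3, 7, 21, 60 and 90. Replicate 2 had 15292 CPM in sham and 5582, 3753, 6474, 6683, 11320 and 5868 CPM at those times. Every replicate 2 library was above every replicate 1 library, by 2.09 to 3.24 on the log2 scale within a group. Of the 13861 genes, 352 had a larger median excess of replicate 2 over replicate 1. Genes that differed in the other direction were not counted. Standard errors of its differences from sham were therefore large, as at day 3 (-1.87 ± 1.50, edgeR adjusted p = 0.464), and none passed. Within replicate 1, day 60 was 0.36 above sham on the log2 scale and the other times 0.48 to 1.28 below it, and within replicate 2 all 6 times were 0.43 to 2.03 below it.

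Other heavy chain rows split by replicate number in the same direction. H2-Q1 had 0.218 to 3.71 CPM in the replicate 1 libraries and 3975 to 14319 CPM in the replicate 2 libraries. Its median excess of replicate 2 over replicate 1 was the largest of all 13861 genes. Its count was 0.0218 to 0.174% of the H2-D1 count in replicate 1 and 78.8 to 118% in replicate 2. H2-Q4 was at 0.134 to 0.393% and 1.30 to 52.9% of H2-D1, and H2-Q10 at 0.0848 to 29.7% and 12.9 to 29.3%. The 1.30% of H2-Q4 came from day 3 replicate 2 alone, with 33.2 to 52.9% in the other replicate 2 libraries. In sham H2-Q10 was at 29.7% of H2-D1 in replicate 1 and 29.3% in replicate 2, so this share did not split there. In the other replicate 1 libraries it was at most 5.26%. H2-K1 showed the reverse sign and a small size, with a median of -0.31 on the log2 scale. H2-M3 (0.27), H2-T23 (0.12) and H2-T24 (-0.39) also differed little between replicates. As a result H2-K1 made up 38.3 to 61.5% of the summed level of H2-K1, H2-D1, H2-Q1, H2-Q4 and H2-Q10 in replicate 1 and 2.67 to 7.84% in replicate 2. Of all genes, 116 were higher in replicate 2 by over 3 on the log2 scale in all 7 groups, among them H2-Q1, H2-Q4, H2-Q10 and H2-T10. How the counting treated reads that align to several genes is not given in the sources used here, and its part in this split was not tested.

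**Figure D3:**
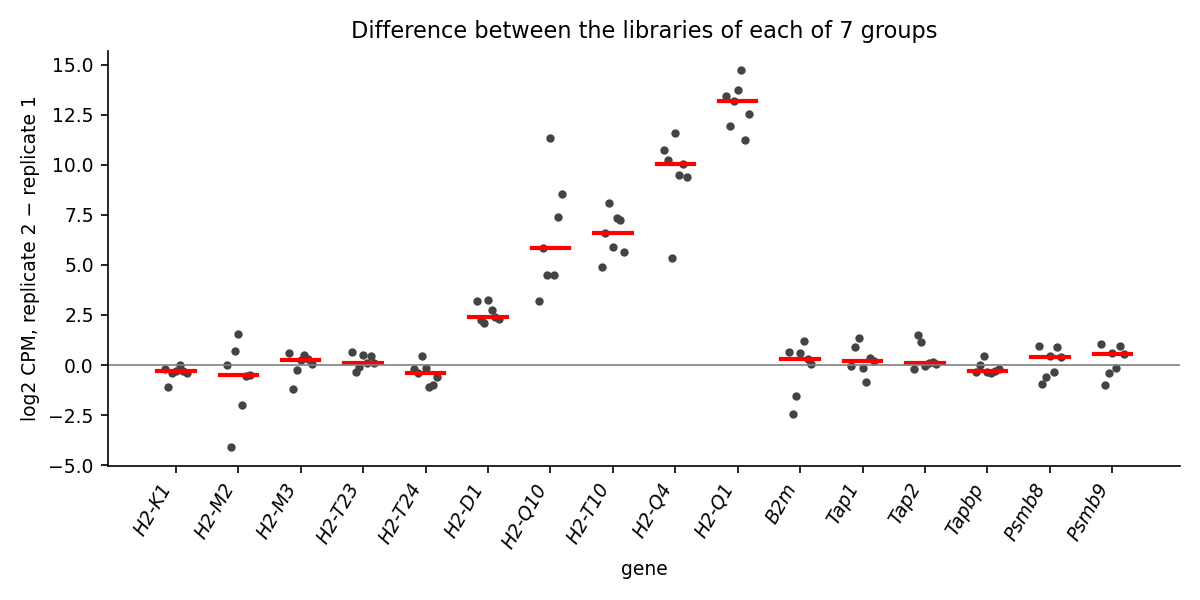
Difference in log2 CPM between replicate 2 and replicate 1 for 16 class I pathway rows, with 1 point for each of the 7 groups and a red line at their median. H2-D1 lies between 2.09 and 3.24 and H2-Q1 between 11.2 and 14.8, while H2-K1 lies between -1.09 and 0.02.

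B2m, the light chain that class I heavy chains share, was abundant. In sham replicate 1 its level per length was 3234 CPM per kilobase of the longest coding transcript, the highest of the 10 genes, followed by H2-K1 (828), H2-D1 (792), Tapbp (310), Psmb8 (184), Psmb9 (85.8), Tap1 (77.0), Tap2 (73.9), H2-M3 (22.9) and H2-M2 (0). In sham replicate 2 it was 5037, below the 7275 of H2-D1. B2m was at 2781 and 4332 CPM in sham and 8301 and 10253 CPM at day 60, with both day 60 libraries above sham and every other stroke library. The log2 difference at day 60 was 1.38 ± 0.78 (edgeR adjusted p = 0.276). At day 1 its replicates parted, with 7190.2 CPM in replicate 1 and 1299.7 CPM in replicate 2, and day 3 did so too, with 4469.7 and 1521 CPM. At day 90 both libraries (2593 and 2691 CPM) were below both sham libraries (-0.43 ± 0.77, adjusted p = 0.763).

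The transporter genes Tap1 and Tap2 had their highest means in sham, and no edgeR difference of either passed. Tap1 was at 227 and 222 CPM in sham, 51.6 and 95.2 CPM at day 1, 44.9 and 116 CPM at day 3 and 111 and 100.04 CPM at day 7. It was at 226 and 126 CPM at day 21, 117 and 149 CPM at day 60 and 105 and 120.2 CPM at day 90, so only day 21 overlapped sham. The edgeR difference from sham was -1.61 ± 0.52 at day 1 (adjusted p = 0.0994) and -1.48 ± 0.52 at day 3 (adjusted p = 0.0959), which DESeq2 called at both times (adjusted p = 0.0260 and 0.0328). Tap2 was at 254 and 220.4 CPM in sham, 61.4 and 176 CPM at day 1, 54.9 and 122 CPM at day 3 and 120 and 116 CPM at day 7. It was at 192.5 and 207.7 CPM at day 21, 137 and 153 CPM at day 60 and 146 and 150.3 CPM at day 90, below both sham libraries at all 6 times. Its largest difference was -1.42 ± 0.52 at day 3 (edgeR adjusted p = 0.111, DESeq2 adjusted p = 0.0470).

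Tapbp, which bridges the transporter and the heavy chain, had 899 and 708 CPM in sham and 463 to 957 CPM in the stroke libraries, below both sham libraries at days 1, 3 and 90. Its largest difference from sham was -0.62 ± 0.41 at day 1 (edgeR adjusted p = 0.399).

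The immunoproteasome subunits had their highest means at day 60, as B2m did. Psmb8 was at 300.4 and 579.8 CPM in sham and 563 and 1039 CPM at day 60, and its libraries overlapped sham at all 6 times. Psmb9 was at 116 and 243 CPM in sham, 122 and 62.1 CPM at day 1, 85.6 and 64.8 CPM at day 3 and 49.6 and 75.7 CPM at day 7. It was at 115 and 104 CPM at day 21, 151 and 293 CPM at day 60 and 71.6 and 105 CPM at day 90, below both sham libraries at days 3, 7, 21 and 90. Its largest difference was -1.52 ± 0.53 at day 7 (edgeR adjusted p = 0.0805, DESeq2 adjusted p = 0.0241). Psmb9 and its divergent neighbour Tap1 correlated with r of 0.15 over the groups in replicate 1 and 0.84 in replicate 2. The time course of Psmb8 was most like that of Psmb10, the third immunoproteasome catalytic subunit, with r of 0.97 in both replicates, then of Psme2b, Psme1 (an activator subunit) and Vps72.

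Genes were also counted by whether both libraries of a time lay on one side of both sham libraries. At day 1, 3 of the 10 lay below sham and none above, where 45.2% of all genes lay on one side or the other. At the later times 5, 4, 2, 2 and 5 of the 10 lay below sham. Over all genes this held for 24.5, 27.6, 24.1, 26.9 and 27.2%. Above sham lay 0, 1, 2, 3, 4 and 2 of the 10, against 22.2, 28.9, 32.1, 27.5, 33.9 and 36.4% of all genes. The shares of the 10 genes thus fell on both sides of the shares of all genes. With each replicate compared with its own sham library, 4, 7, 10, 8, 9 and 9 of the 10 genes had the same sign in both at the 6 times, against 57.5, 64.3, 82.3, 71.5, 80.3 and 80.0% of all genes. Tap1, Tap2 and Tapbp agreed in sign at all 6 times, and B2m and Psmb8 at 3.

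**Figure D4:**
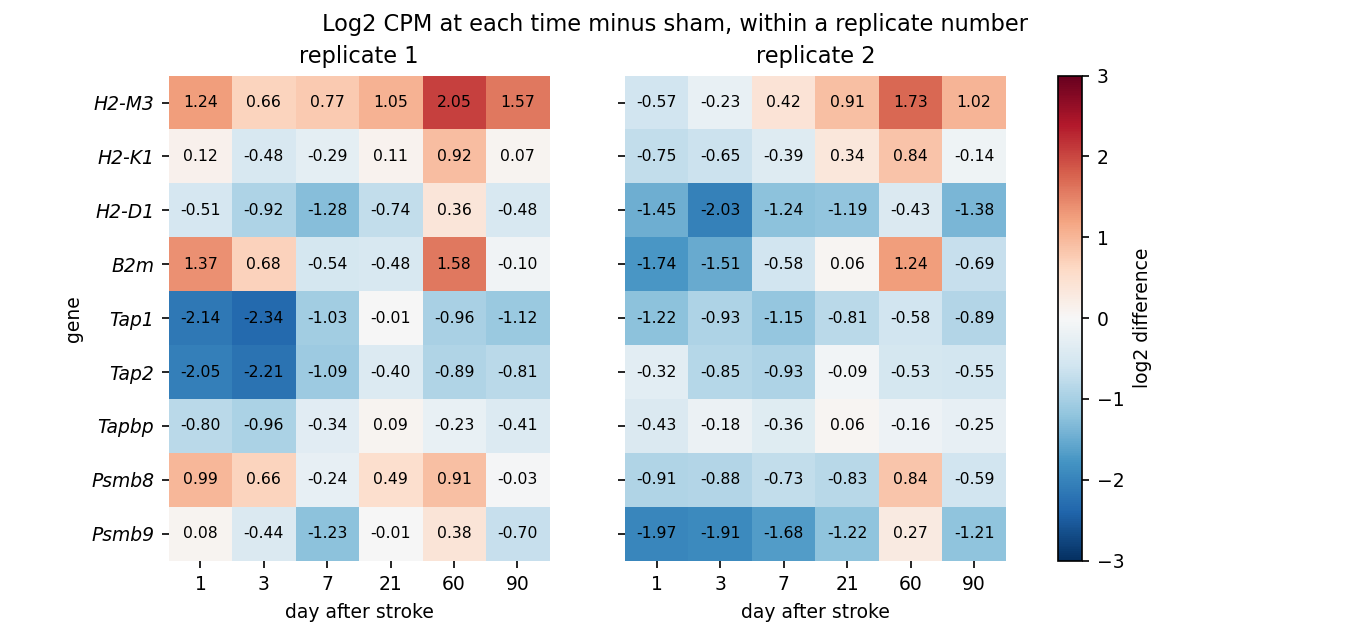
Log2 CPM of 9 genes (H2-M2 is left out because sham had no count) at each day minus the sham library of the same replicate number, for replicate 1 (left) and replicate 2 (right), red above and blue below sham. Tap1 and Tap2 are below 0 in both panels at all 6 times, and B2m at day 1 is 1.37 in replicate 1 and -1.74 in replicate 2.

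Other genes of the pathway came from 5 lists. Of 34 further class I and class I-like genes, 12 were in the table. Of these, 1 fell at each of days 1, 3 and 7 and none was called at days 21, 60 and 90. Over all genes 1.37, 3.07 and 5.63% were called lower at days 1, 3 and 7. In either direction 6.44, 7.85 and 7.86% were called at days 21, 60 and 90. H2-Q7, which is on this list, was not among the 12 in the table and so was not analysed. The gene that fell was H2-T24, a non-classical chain, with log2 differences of -2.26 ± 0.51, -2.44 ± 0.52 and -1.71 ± 0.50 (edgeR adjusted p = 0.0286, 0.0163 and 0.0446). It went from 59.0 and 51.7 CPM in sham to 8.55 and 11.8 CPM at day 3. H2-T23, the Qa-1 chain, was higher at days 60 and 90 than at days 1 and 3 (1.41 ± 0.29, edgeR adjusted p = 0.0266), with 616 and 844 CPM at day 60 against 185 and 173 CPM at day 3. It was also the gene whose time course was most like that of H2-K1 (r of 0.93 and 0.92), ahead of Fam26f, Nosip and Tpst1. H2-T23 shares 28.8% of its 50-base words with other genes and H2-T24 3.17%, so the first is uncertain in the same way as H2-D1.

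Of 14 peptide loading and trimming genes 1 rose at day 1, 1 at day 3 and 3 at day 7. Over all genes 3.18, 5.20 and 7.00% were called higher at days 1, 3 and 7. Calr, the chaperone calreticulin, rose at all 3, from 293 and 391 CPM in sham to 1722 and 928 CPM at day 1 (1.95 ± 0.47, edgeR adjusted p = 0.0362), 1223 and 1409 CPM at day 3 and 1056 and 1026 CPM at day 7. Canx (calnexin, 1.48 ± 0.43) and the protease gene Ide (1.64 ± 0.42) rose at day 7. The tapasin homologue Tapbpl was higher at days 60 and 90 than at days 1 and 3 (1.16 ± 0.24, edgeR adjusted p = 0.0259). Pdia3, the loading complex partner of calreticulin, was 1.55 ± 0.53 above sham at day 7 without passing (adjusted p = 0.0742), and the trimming peptidase Erap1 was not called at any time (0.13 to 0.83 above sham).

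Of 10 proteasome catalytic and activator genes 1 rose, at day 60, when 4.96% of all genes were called higher. It was Psmb6 (2.46 ± 0.66, edgeR adjusted p = 0.0430). This constitutive subunit, which Psmb9 replaces in the immunoproteasome, went from 58.2 and 141 CPM in sham to 364 and 739 CPM. Psmb10, Psme1 and Psme2 were not called, with day 60 differences of 1.08 ± 0.56, 1.26 ± 0.73 and 0.67 ± 1.27. Psme2 was higher in replicate 2 than in replicate 1 in all 7 groups, as in sham (22.6 and 170.05 CPM).

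Of 26 regulators of class I transcription none rose, and 4, 0, 1 and 1 fell at days 7, 21, 60 and 90. Over all genes 3.18 to 7.00% were called higher at the 6 times. Called lower were 5.63, 1.44, 2.89 and 2.73% of all genes at days 7, 21, 60 and 90. Irf2 fell at days 3 and 7, Irf9 at day 3, and Irf1, Ifngr1 and Jak1 at day 7, where Irf1 changed by -2.08 ± 0.57 (edgeR adjusted p = 0.0345). Jak1 fell at day 60 and Irf7 at day 90. Nlrc5, the class I transactivator, was at 24.4 and 8.14 CPM in sham and 5.39 to 30.4 CPM after stroke and was not called. The neutrophil list summed higher in both sham libraries than in any stroke library, and its part in these differences was not tested.

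Of 7 receptor genes that bind class I, 1 was called against sham, at day 90, and 3 rose between days 1 and 3 and days 60 and 90. Over all genes 5.12% were called higher at day 90 and 1.77% between early and late days. Cd8a, a chain of the T cell coreceptor, had 0.364 and 0.570 CPM in sham and 8.65 and 10.9 CPM at day 90 (4.36 ± 1.16, edgeR adjusted p = 0.0408). Cd8a, Cd8b1 and the NK receptor gene Klrc1 differed between late and early days by 5.02 ± 0.85, 8.15 ± 1.46 and 4.29 ± 0.73 (edgeR adjusted p = 0.00893, 0.0140 and 0.00893). All 3 are also markers of T and NK cells. The T and NK cell list (15 of 16 genes in the table) summed to 70.1 and 88.4 CPM in sham, 34.6 to 45.7 CPM at days 1 and 3 and 202 to 443 CPM at days 60 and 90. It was thus higher at the times when H2-M2 was highest. B cell markers (8 of 10 genes in the table) did the same after stroke, with 11.1 to 29.5 CPM at days 1, 3 and 7, 53.2 to 104.6 CPM at day 21, 171 to 184 CPM at day 60 and 308 to 333 CPM at day 90, but had 162 and 185 CPM in sham. The part of either list in the H2-M2 result was not tested.

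Dendritic cell markers, a list of 10 genes all detected in each group, also moved over the time course. They summed to 277 and 325 CPM in sham, 532 to 637 CPM at days 1 and 3, 2614 and 1139 CPM at day 21, 759 and 851 CPM at day 60 and 956 and 1102 CPM at day 90. The list was thus highest at day 21, in replicate 1, where H2-M2 had 9.64 CPM, and lower at day 90, where H2-M2 was highest. The day 21 sums rested on different genes, with Ccr7 (725 CPM) and Cd209a (644 CPM) largest in replicate 1 and Itgax (757 CPM) in replicate 2. In day 21 replicate 2, Itgax, Xcr1, Fscn1 and Bst2 were above both sham libraries. Flt3, Zbtb46, Cd209a, Clec9a and Batf3 were below both there, and Ccr7 lay between them. The part of this list in the H2-M2 result was not tested. By the same likeness measure, the lower of the 2 replicates' r over the 7 groups, and among 7601 genes whose mean log2 CPM reached 3, the time courses nearest to H2-M2 were those of Rad50 (0.96), Tmem176a (0.93), Ppfibp2 (0.93) and Vcam1 (0.92). Rad50 encodes a DNA break repair protein and Vcam1 a cell adhesion molecule. For H2-D1 they were Smc6, Smc3, Yipf4 and Chmp1b, with likeness between 0.91 and 0.93.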

How the data were processed

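RNA of sorted cortical microglia was sequenced in 14 libraries, whose groups and replicate numbers come from their titles. The authors deposited 1 table of raw counts (whole numbers, reads per gene and library). The submitters' processing notes name Bowtie2 2.3.4.2, HTSeq 0.6.1 and mm9. Which annotation, strand setting and read length were used, and what was done with reads aligning more than 1 time, is not given in the sources used here. Since nothing states that the 2 libraries of a group stem from different mice, every p-value reflects variation between libraries that may be technical.

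The counts were tested with edgeR 4.0.16 in R 4.3.3. Its expression filter removed 223 genes, TMM factors scaled the libraries, and 1 robust quasi-likelihood model with a mean for each group (7 residual degrees of freedom) took in all 14. Calls required a Benjamini-Hochberg adjusted p under 0.05 across the 13861 genes left. Standard errors equal the log2 difference over the square root of F. Log2 CPM carry a prior count of 2. Alternatives were DESeq2 1.42.0, limma-voom (limma 3.58.1), upper-quartile scaling, no filter, a replicate block and leaving out each library. Floors cover counting error only. Shared words, alignments and motifs came from Python 3.11.15 and Biopython 1.88 on GENCODE M21 transcripts and RefSeq promoters. Identities use the longest complete coding sequence, gaps left out.

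The members and lists were chosen with earlier results of these data known. Named are all 10 genes, the called genes of each list up to 4 per comparison by size, and Nlrc5, Irf1, Psmb10, Psme1, Psme2, Erap1, Calr, Pdia3 and H2-T23 whatever their result, apart from 1 regulator that is not reported here. The 4 genes most like H2-M2, H2-K1, H2-D1 and Psmb8 are named too. H2-Q1, H2-Q4, H2-Q10 and H2-T10 were added after their values were seen.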

Additional observations from a re-analysis of the deposited data

Results flagged for a closer look

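H2-K1 lay on opposite sides of both sham libraries at different times: both libraries were above sham at days 21 and 60 and below it at days 3 and 7. The mean differed by 607 CPM between days 21 and 3, 464 CPM between days 21 and 7, 1456 CPM between days 60 and 3 and 1314 CPM between days 60 and 7. B2m was above both sham libraries at day 60 and below both at day 90, with means 6635 CPM apart. For H2-K1, day 21 against day 7 was tested without passing (0.55 ± 0.47, edgeR adjusted p = 0.747), and the other pairs of times named were not tested directly. The sides of sham all rest on the same 2 sham libraries. Day 90 against day 60 was tested for B2m without passing (-1.81 ± 0.79, edgeR adjusted p = 0.939).

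H2-M2 is given because its difference between days 60 and 90 and days 1 and 3 passed a direct test (8.49 on the log2 scale, edgeR adjusted p = 0.00609, higher in 4 of 4 late libraries).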

How the results depend on the processing

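Leaving out each library in turn gave 0 to 1 called at days 1, 7, 21 and 90, 0 to 2 at days 3 and 60 and for days 60 and 90 against days 1 and 3, and 1 to 2 in the joint test; the 5 neighbouring pairs stayed at 0. DESeq2 called 1 at day 1, 3 at day 3, 2 at day 7, 3 jointly and 2 between late and early days, where it called 14.7, 20.4, 23.2, 25.1 and 8.35% of all genes given an adjusted p. Upper-quartile scaling called 1 at day 7 (12.9% of all genes), and limma-voom 2 between late and early days. With the replicate number as a block, 1 was called at day 7 (H2-M2, adjusted p = 0.0342) and 2 between late and early days (H2-M2, and H2-M3 with adjusted p = 0.0460), against 2766 and 611 of 13861 genes. The labels give only a number, and differences between replicates correlated with r of 0.0710 to 0.677 over 21 pairs of groups, so the replicate block is no pairing by design. The bounds of H2-M2 with a library left out, the fit without sham libraries and those for single genes between late and early days were chosen after seeing the data. Scaling by upper quartiles moved the median of all genes by 0.13, 0.15, 0.22, 0.10 and 0.20 at days 3, 7, 21, 60 and 90. Signs turned for H2-K1 at day 90 (0.18) and B2m at day 21 (0.10) with upper quartiles, B2m at day 1 with limma-voom (-0.0258) and Psmb8 at day 1 with DESeq2 (-0.00331), none of them called. With 1 library left out, uncalled log2 differences from sham changed sign as follows. H2-K1 ranged from -0.86 to 0.23 at day 1 and -0.21 to 0.25 at day 90. H2-D1 ranged from -2.86 to 1.02 at day 1, -3.26 to 0.48 at day 3, -3.63 to 1.10 at day 7, -3.08 to 1.20 at day 21, -1.99 to 2.01 at day 60 and -2.74 to 1.08 at day 90. H2-M3 ranged from -0.29 to 0.90 at day 1 and -0.062 to 0.53 at day 3. B2m ranged from -1.45 to 1.02 at day 1, -1.22 to 0.33 at day 3 and -0.83 to 0.38 at day 21. Psmb8 ranged from -0.50 to 0.59 at day 1, -0.53 to 0.40 at day 3, -0.90 to 0.0050 at day 7, -0.54 to 0.32 at day 21 and -0.70 to 0.18 at day 90. Tap1 ranged from -0.80 to 0.0082 at day 21. Tapbp ranged from -0.090 to 0.35 at day 21. Psmb9 ranged from -0.25 to 0.93 at day 60. The cause was not tested. H2-M2 had few counts at days 1 and 3, 7 and 3 in replicate 1 and 0 and 58 in the deeper replicate 2.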
